A study of Rattus norvegicus with 82 samples.

Results

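The proteasome subunit genes of rat brain were measured on a whole-transcriptome array in 7 brain regions, after 3 treatments and at 2 times of day. The genes were chosen by name: every probe set whose symbol in the platform annotation begins with Psma, Psmb, Psmc, Psmd, Psme or Psmg. In all, 65 probe sets matched. Of these, 6 carried several symbols and named no gene, so Psme3 (a nuclear activator) and Psmb6 (a catalytic beta subunit), which have no other probe set, have no value here. The other 59 probe sets gave 45 genes of 14217 genes named on the array, and each gene was read from the probe set with the highest mean. By role, 7 of the 45 encode the alpha ring, 6 the constitutive beta ring, 3 the inducible beta subunits, 6 the ATPases of the regulatory cap, 11 its non-ATPase subunits, 7 assembly chaperones and 3 activators. The remaining 2, Psmc3ip and Psme3ip1, share the prefix but are not subunits: Psmc3ip encodes a meiotic recombination factor and Psme3ip1 a binding partner of the Psme3 protein.

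The proteasome is the main protease of the cytosol and nucleus. Its core is a barrel of alpha rings, which form the gate, around beta rings, which hold the cutting sites. A cap of ATPases and ubiquitin receptors recognises ubiquitin-tagged proteins, unfolds them and feeds them into the core. Under interferon signalling the catalytic beta subunits are replaced by the inducible Psmb8, Psmb9 and Psmb10, and the Psme1 and Psme2 activator can take the place of the cap. This immunoproteasome supplies peptides to class I antigen presentation, and in brain it is associated mainly with glia and inflamed tissue.

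The samples were total RNA from rats labelled ADX, pADX or Sham and PM or AM, taken from 2 brainstem nuclei (dorsal raphe and locus coeruleus) and 5 forebrain regions (hypothalamus, hippocampus, frontal cortex, amygdala and septum). ADX commonly abbreviates adrenalectomy, in which the adrenal glands are taken out, and Sham marks animals operated on without that step. The labels used here give no meaning for the p in pADX and no strain, sex or age. Combining region, treatment and time, 80 of 82 arrays made up 41 groups, all of 2 arrays apart from 2 groups of 1. The frontal cortex and hippocampus had 10 arrays each and the other regions 12. The labels do not say whether arrays came from separate animals, or whether 1 animal gave several regions, so p-values measure only the spread between arrays. In the hippocampus both pADX arrays are labelled PM, and their time is in doubt.

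Region was read from the title and description, since the source name disagreed with both for the septum, hypothalamus, dorsal raphe and locus coeruleus. Regional markers went with the titles. Slc6a4, the serotonin transporter, was highest in the dorsal raphe, and Dbh and Slc6a2 of noradrenergic neurons in the locus coeruleus. The 2 dorsal raphe markers measured of 3 listed were not confined to that nucleus. They summed to 1016 to 2766 there, 308 to 1687 in the locus coeruleus and at most 43.8 elsewhere. Avp, Oxt, Hcrt and Pmch, neuropeptides of the hypothalamus, were highest there, and Neurod6 of pyramidal neurons was highest in the hippocampus. Arrays came in different scaling states. The trimmed mean of the deposited intensities was 150.04 to 150.05 on 43 grouped arrays, which hold every array of the frontal cortex, septum and amygdala, 7 of the locus coeruleus and 2 of the dorsal raphe. On the other 37 grouped arrays it was 34.1 to 171. Values below are log2 intensities after quantile normalization, with a floor of 4 on the log2 scale. Frontal cortex Sham PM replicate 2 and hippocampus ADX PM replicate 1 stood apart from their regions. They had the lowest correlations with the mean of the region's other arrays, 0.9741 and 0.9825. Frontal cortex Sham AM replicate 2, at 0.9835, was close to the latter and was kept. Tests of treatment or time by region are given with and without the 2 arrays that stand apart. Regional differences and ranges are given with them only.

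All 45 genes lay above the 40th percentile of mean signal, with a median percentile of 94.6, and Psmb9, on 1 dorsal raphe array, was the only member at the floor on any array. The 5 immunoproteasome genes measured sit at 3 places in the genome. Psmb8 and Psmb9 lie on chromosome 20 with Tap1, a peptide transporter of antigen presentation, between them. Psme1 and Psme2 lie on chromosome 15 with Emc9 between them, and Psmb10 lies on chromosome 19. Their promoters are printed because these genes include the widest regional differences of the whole set. Each window is 250 bases before to 50 after the RefSeq gene start in rat assembly GRCr8, on the gene's strand, 5′ to 3′. Capitals mark the core of the interferon regulatory factor element, which is GAAA, 2 free bases and GAAA again, or its reverse complement. The window of Psmb8 is chr20:4656982-4657281 on the minus strand, and that of Psmb9 is chr20:4668750-4669049 on the plus strand. Psmb10 is at chr19:50743243-50743542 on the minus strand. Psme1 is at chr15:33038721-33039020 on the plus strand and Psme2 at chr15:33052702-33053001 on the minus strand.
Psmb8: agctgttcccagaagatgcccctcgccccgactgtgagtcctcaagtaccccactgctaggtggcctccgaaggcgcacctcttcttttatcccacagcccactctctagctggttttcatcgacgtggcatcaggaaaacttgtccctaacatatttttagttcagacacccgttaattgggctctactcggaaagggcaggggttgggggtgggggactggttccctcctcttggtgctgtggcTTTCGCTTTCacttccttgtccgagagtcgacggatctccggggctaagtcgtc
Psmb9: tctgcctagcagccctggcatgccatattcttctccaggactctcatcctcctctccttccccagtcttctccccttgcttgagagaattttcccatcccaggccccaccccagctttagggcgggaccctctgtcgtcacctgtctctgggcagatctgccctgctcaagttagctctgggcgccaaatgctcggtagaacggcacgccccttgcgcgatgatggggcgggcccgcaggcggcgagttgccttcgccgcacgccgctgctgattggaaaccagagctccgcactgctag
Psmb10: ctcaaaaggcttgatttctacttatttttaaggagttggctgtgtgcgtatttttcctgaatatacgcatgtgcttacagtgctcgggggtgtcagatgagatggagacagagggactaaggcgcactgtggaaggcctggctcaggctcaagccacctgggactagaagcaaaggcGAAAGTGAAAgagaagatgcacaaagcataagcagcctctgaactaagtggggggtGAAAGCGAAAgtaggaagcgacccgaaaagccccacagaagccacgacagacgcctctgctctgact
Psme1: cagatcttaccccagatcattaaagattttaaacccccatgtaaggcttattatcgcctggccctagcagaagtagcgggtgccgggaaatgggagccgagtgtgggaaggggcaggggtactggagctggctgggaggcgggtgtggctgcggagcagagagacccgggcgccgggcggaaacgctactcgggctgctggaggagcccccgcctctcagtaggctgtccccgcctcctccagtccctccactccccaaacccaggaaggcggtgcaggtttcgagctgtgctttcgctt
Psme2: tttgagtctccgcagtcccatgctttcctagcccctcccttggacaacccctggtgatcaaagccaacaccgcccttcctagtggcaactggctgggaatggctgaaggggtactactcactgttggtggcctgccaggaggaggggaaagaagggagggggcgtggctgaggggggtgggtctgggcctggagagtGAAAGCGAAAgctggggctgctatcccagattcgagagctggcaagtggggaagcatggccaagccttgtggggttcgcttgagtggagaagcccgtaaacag

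Of the 45 members, 41 matched a RefSeq promoter. That core, searched on both strands, was found in 7 of these 41 (17.07%), against 3.92% of all 33469 promoters of the same length. The 7 were Psma4, Psmb3, Psme2, Psmg4, Psmb10, Psmd7 and Psmb8, with 2 matches in Psmb10 and none in the windows of Psmb9 and Psme1. The Psme1 window ends in tttcgctt, the start of the core's reverse complement, and the bases after it were not searched. The E-box CACGTG, a binding motif of circadian and growth factors of the basic helix-loop-helix class, was found in 5 of 41 (12.2%), namely Psmc1, Psma4, Psmb3, Psmd9 and Psme3ip1, against 6.418% of all promoters. TGACNNNGC, the antioxidant response core, was found in 7 of 41 members (17.07%) and 12.06% of all promoters. CCAAT was found in 21 of 41 members (51.22%) and 37.49% of all. The palindromic glucocorticoid response element, AGAACA and TGTTCT with 3 free bases between them, was found in 0 of 41 members and 0.01494% of all promoters. A match is a run of letters, not a shown binding site.

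Expression of proteasome genes differed most between regions. The immunoproteasome genes Psme1, Psme2, Psmb8 and Psmb9 were higher in the hypothalamus than in each other region, by up to 1.46 log2 units for Psme1, although on the deposited values without normalization only Psme1 kept its highest mean there. Of the 6 cap ATPases 5 had their highest mean in the locus coeruleus or dorsal raphe. In limma's moderated F test over 80 arrays, 42 of 45 members differed between regions at an adjusted p of 0.05, against 65.3% of all 31042 probe sets and 90.2% of those above the 40th percentile. Psma4 (adjusted p = 0.136), Psmb2 (adjusted p = 0.161) and Psme3ip1 (adjusted p = 0.767) did not pass. The range of the 7 region means ran from 0.08 to 1.44 log2 units over the members, with a median of 0.40, against 0.46 over all probe sets and 0.63 over those above the 40th percentile. It exceeded 0.5 in 16 members and was under 0.25 in 11. Tissue was measured in bulk, so more cells of a type and more RNA per cell cannot be told apart.

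The region of the highest mean was the locus coeruleus for 16 members, the hypothalamus for 11 and the dorsal raphe for 9, together 36 of 45, but only 13 of 45 on the deposited values without normalization. The frontal cortex had 5, the hippocampus 3, the septum 1 and the amygdala 0. The lowest mean fell in the frontal cortex for 13 members, the amygdala for 11, the hippocampus for 9, the dorsal raphe for 7 and the septum for 5. On the deposited values the median probe set above the 40th percentile was lower in the hypothalamus than in the amygdala by a log2 difference of -0.57, and the median member by -0.47. In the dorsal raphe these differences from the amygdala were -0.42 and -0.26, and in the locus coeruleus -0.20 and 0.02. Relative to that shift of the whole array, the members stood higher in all 3 regions. They also did in the frontal cortex, at -0.03 for the median probe set and 0.10 for the median member. In the septum (0.03 and 0.004) and hippocampus (-0.77 and -0.79) they stood lower. With arrays scaled to a common 75th percentile instead, 35 members had their highest mean in one of the 3 regions. How many of all probe sets had their highest mean there is not given here. After quantile normalization the median probe set above the 40th percentile was also higher in these 3 than in each remaining region, by 0.02 to 0.05. For the median member this was 0.16 to 0.23.

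**Figure D1:**
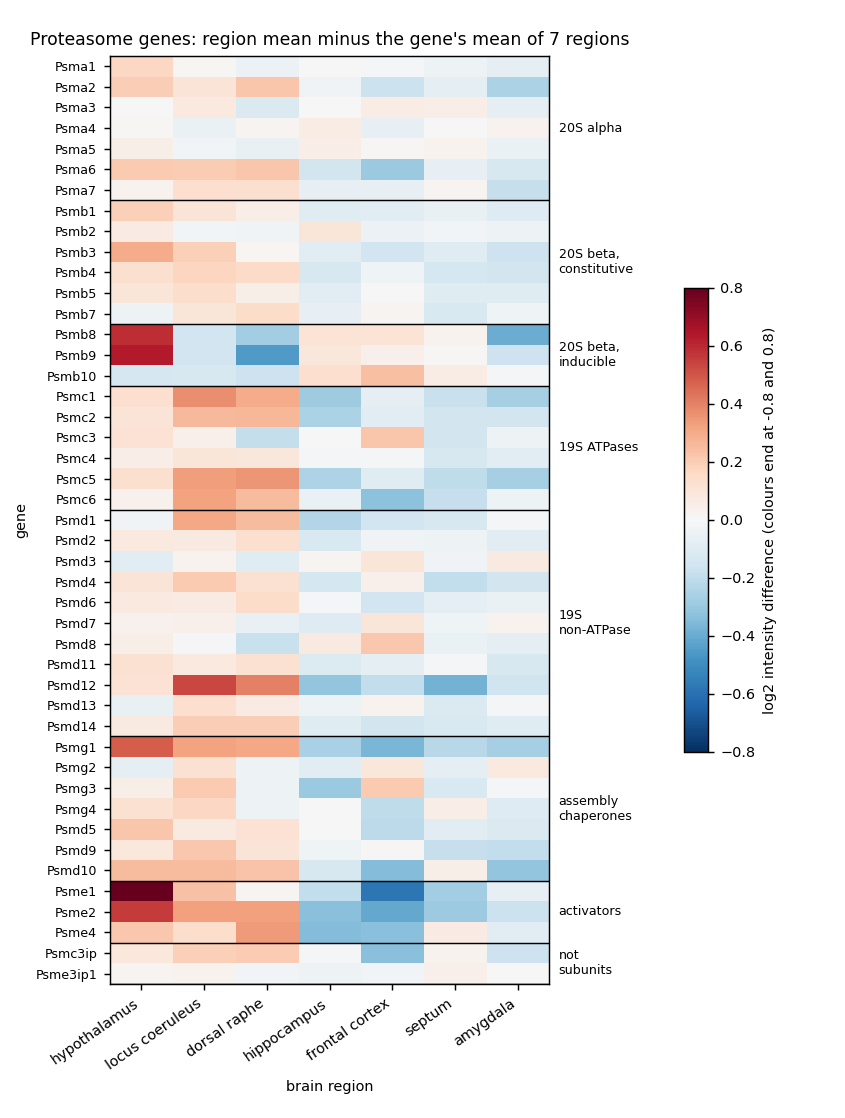
Deviation of each region's mean from the member's own mean over regions (log2, colour) for all 45 genes, grouped by role, after quantile normalization. The activators Psme1 and Psme2 and the inducible Psmb8 and Psmb9 are highest in the hypothalamus column. Most cap ATPases are highest in the dorsal raphe and locus coeruleus columns. Without normalization 13 rather than 36 members peak in these 3 regions, and the share of all probe sets that peak there is not given.

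Between pairs of regions, limma with the 12 combinations of treatment, time and replicate as a block called 30 members higher and 1 lower in the hypothalamus than in the amygdala, where 20.9% and 17.7% of all probe sets were called. Against the hippocampus 26 were higher and 1 lower (background 20.3% and 16.9%), and against the septum 26 and 0 (17.4% and 14.7%). Against the frontal cortex 25 were higher and 2 lower (23.2% and 20%). The locus coeruleus had 32 members higher and 0 lower than the amygdala (21.9% and 18.7%), 30 and 0 against the septum (21.7% and 19.2%), 29 and 2 against the hippocampus (22.6% and 19.1%) and 27 and 3 against the frontal cortex (23.2% and 20.5%). The 3 high regions differed less among themselves. Between hypothalamus and locus coeruleus 7 members were higher and 10 lower (14.2% and 14.5%), and between hypothalamus and dorsal raphe 13 and 8 (13.1% each way). Locus coeruleus and dorsal raphe differed in 4 members, all higher in the locus coeruleus (3.37% higher and 3.13% lower over all).

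These counts were repeated among arrays of 1 scaling state. At the common scale, the locus coeruleus (7 arrays) had 24 members higher and 3 lower than the frontal cortex (background 20.8% and 17.8%), 27 and 0 against the septum (18.7% and 15.8%) and 27 and 0 against the amygdala (18.9% and 15.6%). Off the common scale, the hypothalamus had 24 members higher and 1 lower than the hippocampus (19.8% and 16.3%). The dorsal raphe had 21 higher and 3 lower than the hippocampus in that state (20.7% and 17.5%). The hypothalamus shares no scaling state with the frontal cortex, septum or amygdala, so state and region cannot be told apart in those pairs.

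Psme1 showed the widest regional difference of any member, followed by Psmb9, Psmb8 and Psme2. Psme1, the alpha subunit of the interferon-inducible activator, had log2 values of 9.18 to 9.61 (median 9.42) on the 12 hypothalamic arrays, against 7.61 to 8.43 (median 7.94) on the 10 frontal cortex arrays. Every hypothalamic array lay above every array of the frontal cortex and above the highest of the locus coeruleus, 8.96. The hypothalamus exceeded the frontal cortex by 1.46 log2 units (SE 0.08, limma adjusted p = 3e-26) and the locus coeruleus, the next in order, by 0.63 (SE 0.07, adjusted p = 5.1e-11). Region means were 9.40 ± 0.11 (SD, n = 12) in the hypothalamus, 8.77 ± 0.17 in the locus coeruleus, 8.56 ± 0.26 in the dorsal raphe, 8.47 ± 0.16 in the amygdala, 8.34 ± 0.16 in the hippocampus, 8.26 ± 0.17 in the septum and 7.96 ± 0.21 in the frontal cortex. The frontal cortex was below all 6 other regions at the adjusted threshold. Psme1 kept its highest mean in the hypothalamus under each scaling tried. Its second probe set was at the floor on 69 arrays, and with both averaged the range of region means was 0.73 in place of 1.44.

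Psme2, the beta subunit of the same activator, lay between 8.19 and 8.71 (median 8.40) in the hypothalamus, against 7.31 to 7.60 (median 7.46) in the frontal cortex, with no overlap. The difference was 0.97 log2 units (SE 0.06, limma adjusted p = 2.1e-22). Mean values were 8.43 ± 0.14 in the hypothalamus, 8.20 ± 0.18 in the dorsal raphe and 8.20 ± 0.11 in the locus coeruleus (SD, n = 12 each), and 7.70 ± 0.14 in the amygdala, 7.58 ± 0.16 in the septum, 7.53 ± 0.15 in the hippocampus and 7.46 ± 0.07 in the frontal cortex. Unlike Psme1, it stood nearly as high in the brainstem regions, with hypothalamus above locus coeruleus by 0.23 (SE 0.06, adjusted p = 0.00085), and on the deposited values its highest mean was in the locus coeruleus. Among arrays off the common scale, the hypothalamus exceeded the hippocampus by 1.06 for Psme1 and 0.92 for Psme2. Across the 80 arrays the 2 genes had a Pearson correlation of 0.80, and of 0.21 once region means were removed; the arrays share regions and normalization, so this is a description only.

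Psme4 encodes a nuclear activator unrelated in sequence to the other activators. It was highest in the dorsal raphe, at 7.07 to 7.62 (median 7.29), against 6.14 to 6.98 (median 6.70) in the hippocampus, again without overlap. The dorsal raphe exceeded the hippocampus by 0.69 log2 units (SE 0.08, limma adjusted p = 2.6e-11). The hypothalamus stood at a difference of -0.12 from the dorsal raphe (SE 0.08, adjusted p = 0.25), which did not pass. On the deposited values the highest mean of Psme4 was in the septum.

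**Figure D2:**
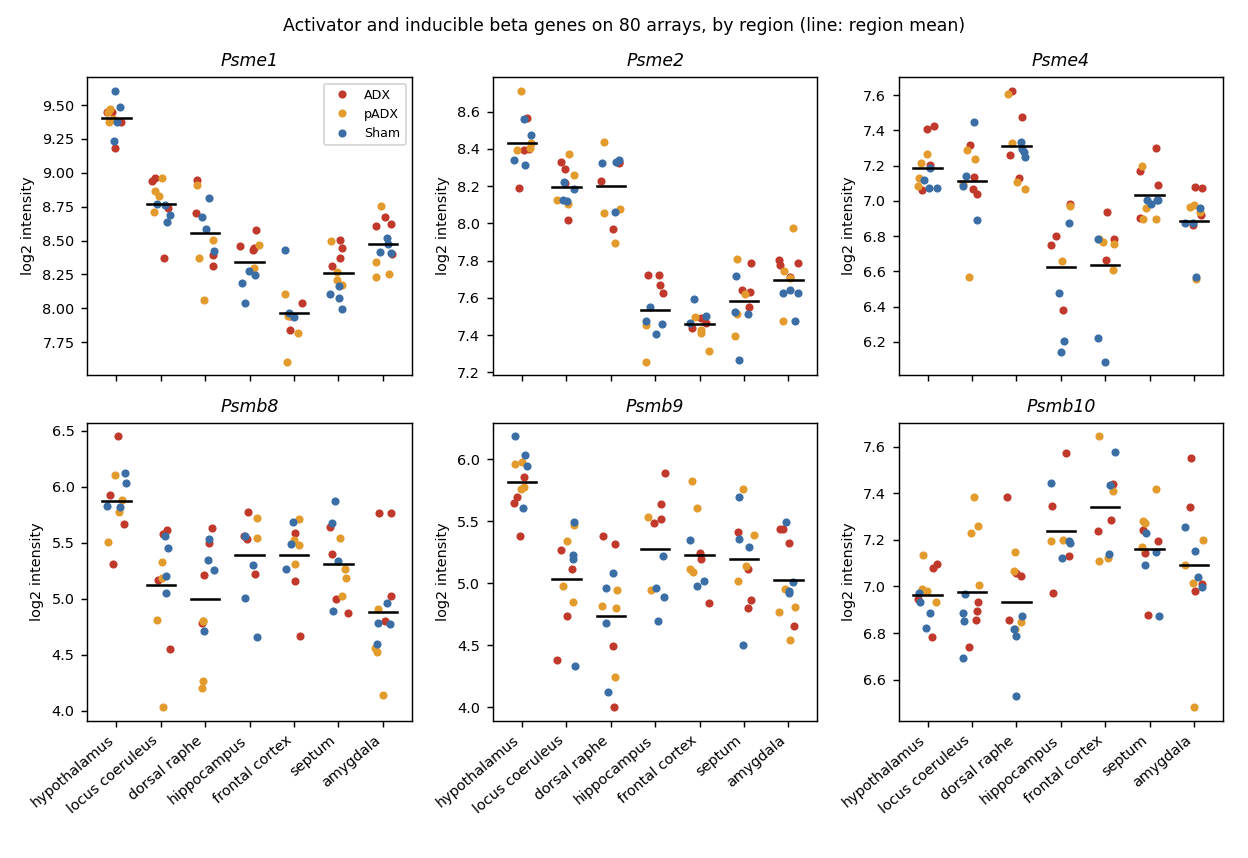
Log2 intensity of activator and inducible beta subunit genes on every grouped array, by region, coloured by treatment, with region means as lines. The 12 hypothalamic values of Psme1 (9.18 to 9.61) lie above every array of the other regions, and Psmb10 has its highest mean in the frontal cortex; on the deposited values only Psme1 is highest in the hypothalamus.

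The inducible beta subunits did not move together. Psmb8, the inducible counterpart of Psmb5, was dim and scattered, at 5.31 to 6.45 (median 5.85) in the hypothalamus, against 4.14 to 5.77 (median 4.79) in the amygdala, with overlap. The hypothalamus exceeded the amygdala by 0.98 log2 units (SE 0.16, limma adjusted p = 7.3e-07) and the frontal cortex by 0.47 (SE 0.17, adjusted p = 0.0216). Psmb9, the inducible counterpart of Psmb6, lay between 5.38 and 6.19 (median 5.82) in the hypothalamus, against the floor of 4 to 5.38 (median 4.81) in the dorsal raphe. The difference was 1.08 (SE 0.14, adjusted p = 3e-09), and hypothalamus exceeded hippocampus, the next in order, by 0.51 (SE 0.15, adjusted p = 0.00365). For both genes the highest mean moved to the septum on the deposited values; among arrays off the common scale hypothalamus stayed above hippocampus, by 0.54 for Psmb8 (adjusted p = 0.0205) and 0.50 for Psmb9 (adjusted p = 0.0237).

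Psmb10, the inducible counterpart of Psmb7, was low in the hypothalamus and highest in the frontal cortex. It lay between 6.78 and 7.14 (median 6.96) in the hypothalamus, against 7.11 to 7.64 (median 7.35) in the frontal cortex, which overlap only at their edges. The hypothalamic value was lower by a log2 difference of -0.37 (SE 0.09, limma adjusted p = 0.000207), and that of the dorsal raphe by -0.40 (SE 0.09, adjusted p = 6.9e-05). The frontal cortex was also highest on the deposited values and after scaling to the 75th percentile. The constitutive counterparts varied little: Psmb7, with trypsin-like activity, had a range of region means of 0.27, and Psmb5, with chymotrypsin-like activity, of 0.24, against 0.98 for Psmb8.

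Genes of class I antigen presentation and of microglia were set beside the hypothalamic pattern. Of 10 class I genes measured of 13 listed, 6 were highest in the hypothalamus, among them Tap1, which was at the floor on 60 of 80 arrays. Of the others, Tap2 and Calr were highest in the hippocampus and Nlrc5 and RT1-CE5 in the septum. Tap2, Calr and RT1-CE5 did not pass for region (limma F test adjusted p = 0.307, 0.267 and 0.422). Nlrc5 and RT1-CE5 were at the floor on 75 and 63 arrays. B2m, Pdia3 and Calr were the brightest, at 11.41, 10.77 and 9.61 in the hypothalamus, and make up most of a sum of linear intensities. The summed intensity of the list was 5195 to 6438 on hypothalamic arrays, against 3689 to 4007 in the frontal cortex, 3476 to 4553 in the amygdala, 4622 to 5063 in the locus coeruleus, 3685 to 4914 in the dorsal raphe, 3978 to 5275 in the hippocampus and 3849 to 5099 in the septum. Of 10 microglia and macrophage genes 5 were highest in the hypothalamus, where their sum was 874 to 1247. It was 639 to 898 in the locus coeruleus, 543 to 1013 in the dorsal raphe, 781 to 1218 in the hippocampus, 789 to 1172 in the frontal cortex, 791 to 1110 in the septum and 775 to 1154 in the amygdala, so the hypothalamus overlapped each other region for that list. Cx3cr1, a chemokine receptor of microglia, was lower in the hypothalamus than in the frontal cortex (-0.45, limma adjusted p = 0.00421) and the hippocampus (-0.43, adjusted p = 0.00742). It was higher there than in the locus coeruleus (0.56, adjusted p = 0.000305) and dorsal raphe (0.59, adjusted p = 0.000182). C1qa was higher than in the frontal cortex (0.39, adjusted p = 0.000372) and hippocampus (0.32, adjusted p = 0.00426). C1qb and Ptprc passed against the frontal cortex only and C1qc against the hippocampus only, all higher. Aif1, Csf1r, Itgam, Cd68 and Tyrobp passed against neither. The defining markers Cd68 and Itgam were at the floor on 54 and 29 of 80 arrays. The part of these cells in the results was not tested.

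By likeness over the 80 arrays, the genes with the highest Pearson correlation to Psme1 were Spint2 (0.88) and Hcrt (0.87), and to Psme2 Saraf (0.92) and Scn7a (0.92). Psmb9 was most like Anxa1 (0.72) and RT1-Da (0.67), a class II antigen presentation gene, and Psmb8 most like Col1a2 (0.59) and Serping1 (0.59). Psmb10 was most like Brk1 (0.67) and Mapkap1 (0.67). Correlations across arrays of different regions follow the regional order and are given as descriptions.

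In the cap, the ATPases that unfold substrates were high in the brainstem. The median ATPase stood 0.29 log2 units above its own mean over regions in the locus coeruleus and 0.26 above it in the dorsal raphe, against -0.16 in the septum and -0.15 in the hippocampus. Psmc1 lay between 10.02 and 10.29 (median 10.16) in the locus coeruleus, against 9.22 to 9.68 (median 9.49) in the hippocampus. The groups did not overlap, and the locus coeruleus was higher by 0.66 (SE 0.05, limma adjusted p = 3.1e-20). It was also highest on the deposited values, and it exceeded the amygdala by 0.65 among arrays at the common scale (adjusted p = 4.5e-12). Psmc5, chosen after its values were seen, lay between 10.36 and 10.84 in the dorsal raphe, against 9.83 to 10.17 in the amygdala, a difference of 0.62 (SE 0.04, adjusted p = 1.7e-19).

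Psmc3 was the exception among the ATPases, and it too was singled out after its values were seen. It had a mean of 9.38 ± 0.35 in the dorsal raphe (SD, n = 12), against 9.79 ± 0.09 in the frontal cortex (SD, n = 10). The dorsal raphe was lower by a log2 difference of -0.40 (SE 0.07, limma adjusted p = 1e-06). Psmc1, Psmc2, Psmc5, Psmc6, Psmd1, Psmd12 and Psmd14 were each called above 5 other regions in both the locus coeruleus and the dorsal raphe. Psmc2 in the hippocampus was called below all 6 others. The share of all probe sets with such calls is not given here.

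The non-ATPase subunit Psmd12, part of the scaffold of the cap's lid, had the widest range there. It lay between 9.76 and 10.18 (median 9.94) in the locus coeruleus, against 8.80 to 9.28 (median 9.05) in the septum. The groups were far apart, by 0.91 log2 units (SE 0.05, limma adjusted p = 3.5e-27). Among arrays at the common scale the difference was 0.90 (adjusted p = 5.5e-14), and the locus coeruleus was highest under each scaling tried. The locus coeruleus stood 0.13 above the dorsal raphe (SE 0.05, adjusted p = 0.0726), which did not pass.

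Of the 7 assembly chaperones of the core and cap, Psmg1, Psmg4, Psmd5 and Psmd10 had their lowest mean in the frontal cortex, while Psmg3 stood 0.21, Psmg2 0.09 and Psmd9 0.01 above their own mean over regions there. The median chaperone was at -0.20 in the frontal cortex and 0.21 in the locus coeruleus. Psmg1, which pairs with Psmg2 to build the alpha ring, lay between 8.93 and 9.19 (median 9.05) in the hypothalamus, against 8.02 to 8.59 (median 8.14) in the frontal cortex, without overlap. The hypothalamus was higher by 0.86 (SE 0.06, limma adjusted p = 5.4e-20), and it exceeded the locus coeruleus by 0.17 (SE 0.06, adjusted p = 0.0191). Psmd5, a chaperone of the cap's base, and Psma1 of the alpha ring were called above all 6 other regions in the hypothalamus. With Psme1, Psme2, Psmb8, Psmb9 and Psmg1 they made 7 members. Over all probe sets 13.1% were called higher in the hypothalamus than in the dorsal raphe alone, so at most that share stood above all 6. The hypothalamic lead of Psmg1 and Psme2 was small against the locus coeruleus, and on the deposited values the locus coeruleus was the higher for both. In the frontal cortex 4 members, Psma6, Psmc6, Psmd5 and Psme1, were called below all 6 others. Over all probe sets 12.7% were called lower there than in the amygdala alone, so at most that share stood below all 6.

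The narrowest ranges were those of Psme3ip1, at 0.08 over regions, and of the alpha subunits Psma5, at 0.11 (limma adjusted p = 0.0271), and Psma4, at 0.12. The median range was 0.24 for the alpha ring and 0.28 for the constitutive beta ring, against 0.98 for the inducible beta subunits, and Psma6 (0.52) and Psma2 (0.48) had wider ranges than the other alpha subunits. With the ratio of the beta-actin 3′ to 5′ probe sets, a measure of RNA quality, as a term in the fit, 40 of 45 members passed. Psma5 was no longer called, and the share of all probe sets that passed this fit is not given here. The Psma5 call was also lost on leaving out any 1 of Sham PM replicate 2, Sham AM replicates 1 and 2, ADX AM replicate 2 and pADX AM replicates 1 and 2. That ratio was 3.12 to 6.03 in the dorsal raphe and 3.07 to 3.94 in the locus coeruleus, against 2.56 to 4.11 in the amygdala, 2.73 to 3.93 in the frontal cortex, 2.60 to 3.79 in the septum, 2.64 to 3.11 in the hypothalamus and 1.73 to 2.95 in the hippocampus. It was highest in the dorsal raphe, and the locus coeruleus overlapped the amygdala, frontal cortex, septum and hypothalamus. Its part in the regional differences beyond that fit was not tested. Psmc3ip, not a subunit, had a range of 0.54 with its highest mean in the dorsal raphe, which exceeded the frontal cortex by 0.57 (SE 0.12, adjusted p = 4.3e-05).

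Oligodendrocyte genes also moved with the brainstem pattern. Of 8 measured of 9 listed, 5 were highest in the locus coeruleus and 2 in the dorsal raphe. Their summed intensity was 22210 to 25927 in the locus coeruleus and 20202 to 25813 in the dorsal raphe, against 18460 to 21782 in the hippocampus, 17798 to 21064 in the septum, 17417 to 20112 in the hypothalamus, 9548 to 14376 in the amygdala and 8648 to 13210 in the frontal cortex. The neuron list summed to 17500 to 21176 in the dorsal raphe and 16545 to 21463 in the locus coeruleus, against 16272 to 17440 in the frontal cortex, 14452 to 15618 in the amygdala, 13964 to 15869 in the hippocampus, 11401 to 13037 in the septum and 10680 to 12344 in the hypothalamus. Of its 8 genes 3 were highest in the dorsal raphe, 2 in the locus coeruleus and 3 in the frontal cortex. The part of cell composition in the regional differences was not tested. Of 19 proteasome partners measured outside the chosen symbols, such as Pomp, a core maturation factor, all 19 differed between regions, with 5 highest in the hypothalamus, 4 in the locus coeruleus and 4 in the amygdala. Of 10 genes of ubiquitin supply, 9 differed, and 4 were highest in the hypothalamus. Both counts stand near the 90.2% of probe sets above the 40th percentile that differed.

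Inside a region, single pairs of members varied with less in common than each member with the rest. Over 990 pairs of members, the median Pearson correlation across 80 arrays was 0.15 after region means were removed. The correlation of a member with the mean of the others had a median of 0.40, and was highest for Psmb4 (0.72). The ATPases Psmc1 and Psmc5 had 0.90 across arrays and 0.41 within regions, and Psmb8 and Psmb9 had 0.52 and 0.22. Where a gene had several probe sets they did not always give the same order. The dimmest of 3 probe sets of Psmc6 was flat across regions, with means of 7.34 in the hypothalamus and 7.50 to 7.57 elsewhere, and the second probe set of Psmd11 was highest in the locus coeruleus rather than the hypothalamus.

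For treatment and time, the 5 regions with 12 arrays were averaged into 12 units, 1 for each treatment, time and replicate, and no member passed the test in any of 8 comparisons after quantile normalization. ADX against Sham asked what loss of adrenal hormones did to these genes. It gave 0 members called, against 0.132% of all probe sets (41 called). At an unadjusted p under 0.05, 8 members were higher and 0 lower (4.61% and 4.41% over all). Of 45 members, 35 had a positive difference, with a median log2 difference of 0.03, against 51.8% of probe sets above the 40th percentile with a median of 0.00. This direction was turned on the deposited values without normalization, where 41 members were called, against 44.2% of all probe sets. There the median member stood at -0.26 and the median probe set above the 40th percentile at -0.28, a shift of the whole array. In the locus coeruleus every ADX array was off the common scale (trimmed mean 91.7 to 117) and every Sham array was at it. Scaling state and treatment cannot be told apart there.

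By role, all 7 chaperones, all 6 ATPases and all 3 activators were on the positive side in ADX, and 4 chaperones had an unadjusted p under 0.05. Psmg4, a core chaperone, had unit values of 8.04, 7.99, 8.23 and 8.03 in ADX, against 7.87, 7.97, 7.88 and 7.98 in Sham. All 4 ADX units lay above all 4 Sham units, but the difference of 0.15 (SE 0.05) had a limma adjusted p of 0.433. Psmb10 had 7.05, 7.0, 7.07 and 7.07 in ADX, against 6.98, 6.89, 6.96 and 6.93 in Sham, again without overlap (0.11, SE 0.03, adjusted p = 0.370). Psma6 was the 3rd member without overlap, where 1.89% of probe sets lay wholly above and 1.87% wholly below. The smallest adjusted p of any member was 0.152, for Psmc5 (0.08, SE 0.02). On the deposited values the differences of Psmd10, Psmb10, Psmg3 and Psmg4 were negative.

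None of the other named members passed. Psmg3 differed by 0.13 (SE 0.17), Psmd10 by 0.11 (SE 0.04), Psmb9 by -0.09 (SE 0.12), Psma1 by -0.08 (SE 0.05) and Psmd7 and Psmd1 by -0.03 each (SE 0.03 and 0.04). Of the 3 blood genes measured of 5 listed, Alas2 of haem synthesis fell in ADX (-1.62, limma adjusted p = 0.0304), while Hbb of haemoglobin (-1.73, adjusted p = 0.0660) and Slc4a1 of the red cell membrane (-0.10, adjusted p = 0.947) did not pass. Their sum was 699 to 1500 in ADX units, against 2560 to 3386 in Sham units, without overlap. By region, 2 of these 3 blood genes had their highest mean in the hypothalamus and 1 in the dorsal raphe. Their sum was 1065 to 7004 on hypothalamic arrays and 879 to 5684 on dorsal raphe arrays, and the hypothalamus overlapped each other region. The part of blood in the members' values was not tested.

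For pADX against Sham 0 members were called (0.00644% of all), with 5 higher and 1 lower at an unadjusted p under 0.05 (3.96% and 3.74%). Psmb8 had 5.13, 4.87, 4.93 and 5.04 in pADX units, against 5.37, 5.25, 5.39 and 5.36 in Sham units. Every pADX unit lay below every Sham unit, with a difference of -0.35 (SE 0.08, limma adjusted p = 0.393). Over all probe sets 1.59% lay wholly below and 1.9% wholly above. Within regions the Psmb8 difference was -0.69 in the dorsal raphe (SE 0.25), -0.48 in the locus coeruleus (SE 0.29) and -0.25 in the amygdala (SE 0.25), and 0.72 in the hippocampus (SE 0.20), where the pADX time label is in doubt; none passed the test.

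Psmd8, a lid subunit, had unit values of 8.67, 8.82, 8.64 and 8.71 in pADX, against 8.45, 8.58, 8.44 and 8.63 in Sham. The pADX units all lay higher, by 0.18 on average (SE 0.06, limma adjusted p = 0.532). Psmg2 (0.11, SE 0.03, adjusted p = 0.465) and Psmg4 (0.15, SE 0.05, adjusted p = 0.554) also did not overlap. Psmb10 differed by 0.15 (SE 0.03, adjusted p = 0.389), with overlap, and Psmg3 by 0.22 (SE 0.17). Psmc3ip (-0.05, SE 0.13), Psma1 (-0.04, SE 0.05) and Psme3ip1 (-0.04, SE 0.03) were on the negative side.

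Between ADX and pADX 0 members were called (0.0483% of all), with 4 higher and 0 lower at an unadjusted p under 0.05 (3.91% and 4.12%). Psmb8 had 5.18, 5.28, 5.48 and 5.58 in ADX units, all above the pADX units given above. The difference of 0.39 (SE 0.08) had a limma adjusted p of 0.237. Wholly above lay 1.96% and wholly below 2.03% of probe sets, and Psmb7 was the 1 member wholly below (-0.05, SE 0.02, adjusted p = 0.639). Psme4 differed by 0.11 (SE 0.05), Psmb4 by 0.07 (SE 0.03) and Psma2 by 0.07 (SE 0.03), all negative on the deposited values, on which 20 members were called, against 11.5% of all probe sets, with a median of -0.18. Psmd8 (-0.12, SE 0.06), Psmb3 (-0.11, SE 0.06), Psmg3 (-0.09, SE 0.17) and Psmc6 (-0.08, SE 0.05) were lower in ADX without passing.

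**Figure D3:**
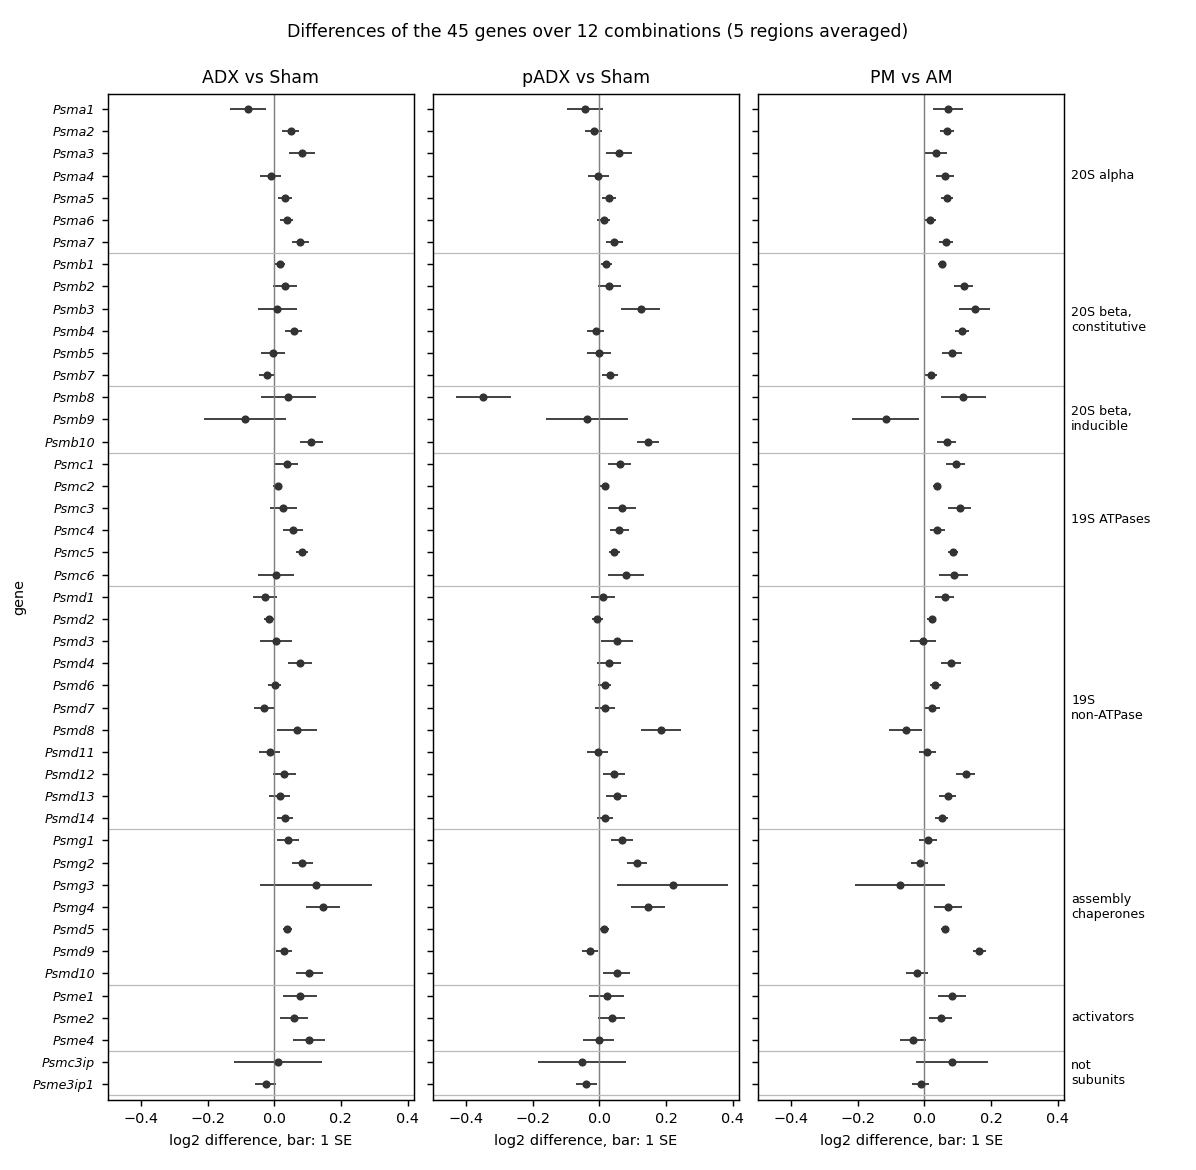
Log2 difference of each member for ADX vs Sham, pADX vs Sham and PM vs AM over 12 units, by role, with 1 SE as bars and no member past an adjusted p of 0.05. Points of PM vs AM sit mostly on the positive side (37 of 45), and Psmb8 is the outlying low point of pADX vs Sham at -0.35; on the deposited values the ADX vs Sham points centre on -0.26.

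PM against AM gave the most even pattern. No member was called (0.00966% of all), but 20 of 45 were higher and 0 lower at an unadjusted p under 0.05, against 5.09% and 5.35% of all probe sets. A positive difference was found for 37 of 45, with a median of 0.06, against 48.9% of probe sets above the 40th percentile with a median of 0.00. On the deposited values 37 were also positive, with a median of 0.07, and in the septum and amygdala alone, whose arrays all share 1 scale, 35 were, with a median of 0.05. With the hypothalamus added to those, 34 were positive, with a median of 0.03. By role, all 7 alpha subunits, all 6 constitutive beta subunits and all 6 ATPases were on the positive side, with 4, 5 and 4 of them at an unadjusted p under 0.05. Of the 11 non-ATPase subunits 9 were, and of the 7 chaperones 4. The partners outside the chosen symbols had 12 of 19 positive with a median of 0.02, and the ubiquitin genes 4 of 10.

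Psmd9, a chaperone of the cap's base, came closest to passing. Its unit values at PM were 6.97 and 6.92 in ADX, 6.85 and 6.95 in pADX and 6.92 and 6.90 in Sham. At AM they were 6.79 and 6.77 in ADX, 6.70 and 6.73 in pADX and 6.76 and 6.76 in Sham. The 6 PM units lay above all 6 AM units, at a mean of 6.92 ± 0.04 against 6.75 ± 0.03 (SD, n = 6 each), a difference of 0.16 (SE 0.02, limma adjusted p = 0.0797). By region it was 0.34 in the dorsal raphe (SE 0.08), 0.19 in the frontal cortex, 0.16 in the hypothalamus, 0.15 in the septum, 0.09 in the locus coeruleus, 0.09 in the amygdala and 0.05 in the hippocampus, positive in all 7. In the septum and amygdala alone it was 0.12 (adjusted p = 0.568).

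Psmd5 (0.06, SE 0.01, limma adjusted p = 0.162) and Psmb1 of the beta ring (0.05, SE 0.01, adjusted p = 0.224) also separated all PM from all AM units, where 0.325% of all probe sets lay wholly above and 0.335% wholly below. Psmb4 of the beta ring had a mean of 11.05 at PM and 10.93 at AM (0.11, SE 0.02, adjusted p = 0.160), and Psmc5 differed by 0.09 (SE 0.01, adjusted p = 0.160). These 4 genes were chosen after their values were seen. Psmd12 averaged 9.58 ± 0.04 at PM and 9.46 ± 0.05 at AM (SD, n = 6 each), Psmb3 9.69 ± 0.12 and 9.54 ± 0.07, and Psmb2 9.49 ± 0.06 and 9.37 ± 0.03. Each of the 3 overlapped, and their adjusted p-values were 0.190, 0.331 and 0.220. On the other side stood Psmb9 (-0.12, SE 0.10), Psmg3 (-0.07, SE 0.14), Psmd8 (-0.06, SE 0.05) and Psme4 (-0.03, SE 0.04).

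**Figure D4:**
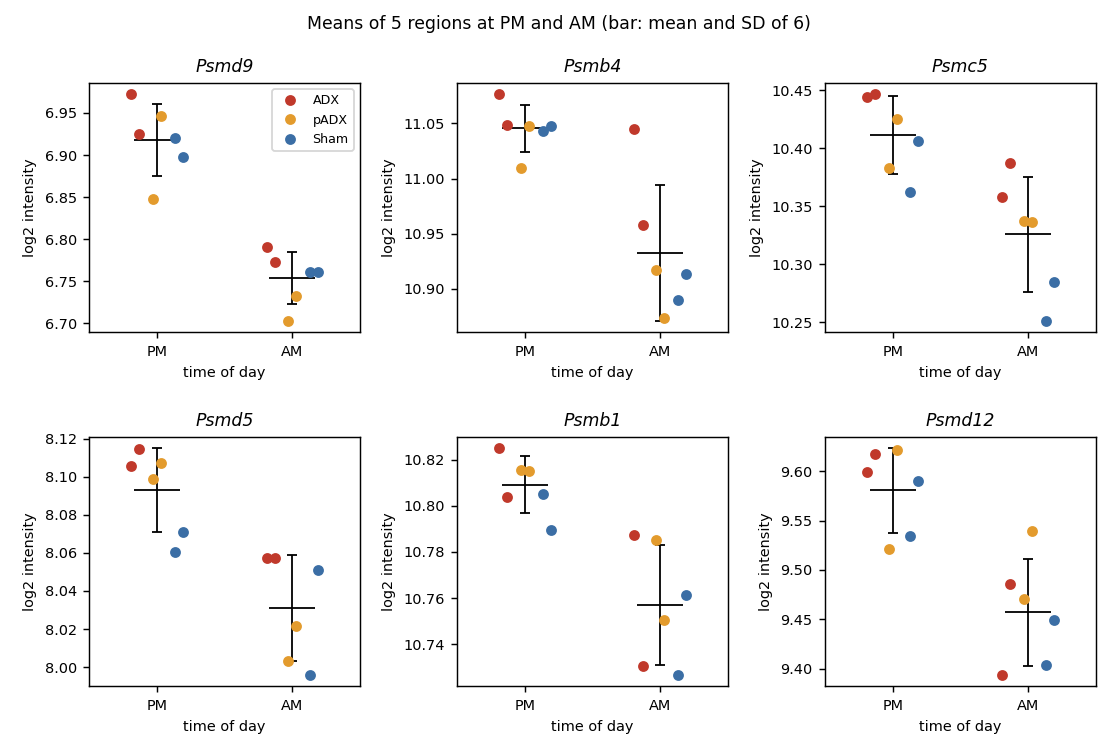
Log2 intensity of Psmd9, Psmb4, Psmc5, Psmd5, Psmb1 and Psmd12 in each unit at PM and AM, coloured by treatment, with the mean and SD of 6 units as bars. For Psmd9 the 6 PM units (6.85 to 6.97) lie above the 6 AM units (6.70 to 6.79).

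The time difference was largest in the dorsal raphe, where 38 of 45 members were positive with a median of 0.13 and 18 had an unadjusted p under 0.05 on the high side, against 5.56% of all probe sets; 0 were called (0.00966%). The beta-actin 3′ to 5′ ratio there was 3.12 to 4.79 on the 6 PM arrays, against 3.52 to 6.03 on the 6 AM arrays, and its part in the time difference was not tested. In Sham the common scale was shared by both PM arrays of this nucleus and by no AM array, and scale and time cannot be told apart there. The medians elsewhere were 0.06 in the amygdala, 0.04 in the locus coeruleus, 0.03 in the hypothalamus and 0.01 in the septum, with -0.0033 in the hippocampus and -0.03 in the frontal cortex. Whether the time difference depended on region was tested by an interaction F test, which called 0 members (0.312% of all, smallest adjusted p 0.0549).

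Within ADX, PM against AM gave 12 members higher and 0 lower at an unadjusted p under 0.05 (4.94% and 5.54% over all), within pADX 6 and 0 (3.22% and 3.07%) and within Sham 4 and 0 (4.47% and 4.83%). None was called, where 0.029% of all were called in ADX, 0.00966% in pADX and 0.0773% in Sham. The median member difference was 0.07 in ADX, 0.05 in pADX and 0.05 in Sham, with 35, 29 and 37 members positive. Without pADX PM replicate 2 the pADX median was 0.016, and without ADX PM replicate 1 the ADX median was 0.045. In the septum and amygdala alone the medians were 0.090 in ADX, 0.017 in pADX and 0.020 in Sham, with 34, 25 and 27 members positive. The time difference in ADX minus that in Sham had a median of 0.01, with 0 members called (0.0354% of all) and 0 at an unadjusted p under 0.05 (3.25% higher and 3.5% lower over all), so a dependence of the time difference on ADX was not detected at 2 units per group.

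Whether treatment differences depended on region was tested in the same way, and 1 of 45 members passed, a share near that of all probe sets. In limma's interaction F test Psmc6, an ATPase of the cap, passed for ADX against Sham by region (adjusted p = 0.0405, where 3.08% of all probe sets passed) and for pADX against Sham by region (adjusted p = 0.0271, 1.55%). In the frontal cortex its values were 8.84, 9.19 and 9.06 in ADX, 9.08, 9.17, 9.04 and 9.09 in pADX, and 8.64, 8.89 and 8.37 in Sham. The pADX arrays all lay above the Sham arrays, and ADX overlapped Sham. The lowest Sham value, 8.37, is that of the array that stands apart.

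The call depended on which arrays and which scaling were used. Without the frontal cortex the adjusted p was 0.448 for ADX and 0.518 for pADX, and without the 2 arrays that stand apart it was 0.216 and 0.169. On the deposited values it was 0.0609 and 0.515, and with scaling to the 75th percentile 0.0911 and 0.0429. With each unit left out in turn, the ADX call was lost 10 of 12 times and kept only without pADX PM replicate 2 or Sham PM replicate 1. The pADX call was lost 7 of 12 times, without ADX PM replicate 2, pADX AM replicates 1 and 2, pADX PM replicate 1, Sham AM replicates 1 and 2 or Sham PM replicate 2. In single regions the Psmc6 difference from Sham was 0.40 in ADX and 0.47 in pADX in the frontal cortex (SE 0.14 and 0.13), and 0.05 in ADX and 0.30 in pADX in the amygdala (SE 0.08 each). In the other regions it lay between -0.16 and 0.11 in ADX and between -0.09 and 0.11 in pADX. Its other 2 probe sets gave adjusted p-values of 0.0289 and 0.0376 for ADX and of 0.0315 and 0.0562 for pADX. In the 28 fits of single regions, 4 comparisons in each of 7 regions, 0 members were called, where at most 0.029% of all probe sets were. On the deposited values there were 42 calls over the 28 fits, and the share of all probe sets called there is not given here.

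**Figure D5:**
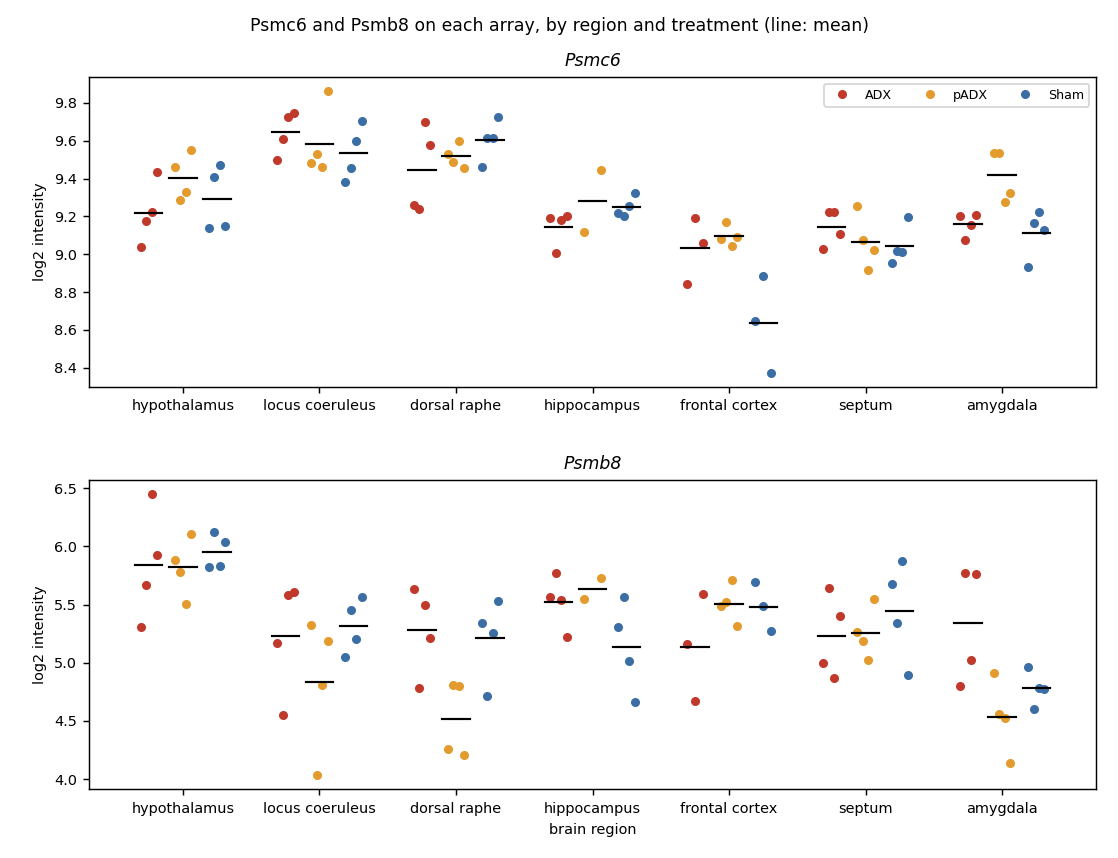
Log2 intensity of Psmc6 and Psmb8 on each array, by region and treatment, with group means as lines. Psmc6 in the frontal cortex is lowest in Sham, with the array that stands apart at 8.37, and the 4 pADX arrays of Psmb8 in the dorsal raphe lie between 4.20 and 4.81.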

How the data were processed

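RNA of 7 rat brain regions was measured on 82 arrays with 31099 probe sets, and the 80 arrays with a labelled region, treatment and time were compared. The deposited files hold 1 linear intensity per probe set and array; which software, scaling or background correction the authors applied is not stated in the labels. From the deposited intensities, quantile normalization over the 82 arrays, a floor of 16 and log2 values were computed here, and 27.5% of values equal the floor. Without the array's 57 controls, 31042 probe sets were tested, with no filter. Scaling states were read from each array's mean intensity with 2% of values trimmed at each end.

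R 4.3.3 with limma 3.58.1 (lmFit, eBayes with a trend) was used, with Benjamini-Hochberg adjustment over all probe sets and a threshold of 0.05. Treatment and time were fitted over 12 units, each a treatment, time and replicate averaged over the 5 regions with 12 arrays. Regions were compared over 80 arrays with the 12 combinations as a block, and each region was also fitted alone. The fits were tested on simulated data with independent noise, which real arrays need not have. Over units, true log2 changes between ADX and Sham were called in 2% of cases at 0.1, 18% at 0.25 and 76% at 0.5. A small change that did not pass is therefore not shown to be absent. Alternatives were no normalization, scaling to a common 75th percentile, a floor of 32, leaving out probe sets below the 40th percentile, the mean of a gene's probe sets, other sets of regions or arrays, the beta-actin ratio as a term, a replicate block and each unit left out in turn. The number of arrays limits the precision.

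Named with values were the 4 largest differences in each direction of each comparison, the 8 widest and 3 narrowest ranges over regions, and always Psmb5, Psmb7 to Psmb10, Psme1, Psme2, Psme4 and Psmc3ip. Other members were named after their values were seen. The members and lists were chosen with earlier results of these data known. Of 20826 probe sets with 1 symbol, 20758 matched RefSeq, which also gave the promoter sequences.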

Additional observations from a re-analysis of the deposited data

Results flagged for a closer look

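Within groups of 4 to 10 samples, the highest or lowest value stood far from the rest in 8 of 140 groups tested, where chance gives about 1 in 20. Psmb8 was 4.67 on the frontal cortex array ADX PM replicate 1, against 5.16 to 5.71 on the other frontal cortex arrays. Psmc3ip was 6.40 in the unit pADX AM replicate 2, against 6.08 to 6.11 in the other pADX units, and 6.59 on the hippocampal array Sham PM replicate 2, against 5.92 to 6.18. Psmg1 was 8.13 on the hippocampal array Sham PM replicate 1, against 8.25 to 8.38 on the others. The unit ADX PM replicate 1 was high for Psmb3, at 9.78 against 9.50 to 9.53, and for Psme1, at 8.86 against 8.68 to 8.71. The unit pADX PM replicate 2 was high for Psma2, at 10.01 against 9.93 to 9.94, and for Psmb7, at 10.40 against 10.36 to 10.37.

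The treatment difference of Psmc6 depended on region in limma's interaction test, with an adjusted p of 0.0405 for ADX against Sham and of 0.0271 for pADX against Sham. Without frontal cortex Sham PM replicate 2 and hippocampus ADX PM replicate 1, which stand apart, these were 0.216 and 0.169.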

How the results depend on the processing

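The normalization between arrays mattered most. Without it, 41 members were called for ADX against Sham (median -0.26), with 44.2% of all probe sets, and 20 for ADX against pADX (median -0.18), with 11.5%. The median was -0.093 for pADX against Sham, 0.10 for PM against AM in Sham, 0.0032 for PM against AM in ADX and -0.086 for the time difference in ADX minus that in Sham. There 13 members were highest in the hypothalamus, dorsal raphe or locus coeruleus. By region 0 were called for ADX or pADX, against 7.03% and 0.168% of all probe sets. Over the fits of single regions 42 calls were made, with the share of all probe sets not given here. Values turned in sign for ADX against Sham in Psmd10 (-0.18), Psmb10 (-0.17), Psmg3 (-0.16) and Psmg4 (-0.15), and for ADX against pADX in Psma2 (-0.10), Psmb4 (-0.11) and Psme4 (-0.062). In the locus coeruleus, scaling state and the difference between ADX and Sham cannot be told apart. The cause was not tested.

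Other settings moved fewer results; those without the frontal cortex, without the 2 arrays that stand apart and within 1 scaling state were chosen after seeing the data. Among frontal cortex, septum and amygdala alone 22 members differed between regions, with 40.6% of all probe sets and fewer arrays. For ADX by region the count was 0 with 75th percentile scaling (3.39% of all tested), without the frontal cortex (0.361%) and without the 2 arrays that stand apart (1.26%). It was 2 (Psmc6 and Psmd7) with the mean of a gene's probe sets (2.97%). For pADX by region it was 0 without the frontal cortex (0.058%) and without those 2 arrays (0.744%). For PM by region it was 1 (Psmc3) with 75th percentile scaling, a floor of 32, dim probe sets left out or those 2 arrays left out. The share of all probe sets called for PM by region in these settings is not given here. In the septum and amygdala alone, signs turned for Psmd7 in ADX against Sham (0.012), for Psmc3ip (0.078) and Psme3ip1 (0.11) in pADX against Sham and for Psme4 in PM against AM (0.056). With the hypothalamus added these were 0.0089, 0.044, 0.057 and 0.048, and Psmg3 in ADX against pADX was 0.0010.

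With each unit left out in turn, 0 to 2 members were called for ADX by region, where 0.399% to 8.40% of all probe sets were. The 2 were called without Sham PM replicate 1, where 8.40% of all passed. For pADX by region 0 to 1 were called (0.142% to 6.21% of all). For PM by region 0 to 2 were called and within single regions 0 to 2, with the share of all probe sets not given here. Signs turned for Psmd1 in ADX against Sham (-0.051 to 0.010, highest without Sham AM replicate 1), for Psma1 in pADX against Sham (-0.078 to 0.0013, highest without pADX PM replicate 1) and for Psmc3ip there (-0.15 to 0.028, highest without Sham PM replicate 2). They also turned for Psmg3 in ADX against pADX (-0.21 to 0.074, highest without ADX AM replicate 2) and in PM against AM (-0.19 to 0.0052, highest without pADX PM replicate 1). Of the summary counts and medians over all settings, 43 moved and 398 did not. Counts were taken as unmoved if equal or within 1.5 times, and medians if within 0.045, the spread between units. Within that limit a median near 0 could turn in sign. The time difference in ADX minus that in Sham went from 0.011 to -0.0067 without Sham PM replicate 1.

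Replicate numbers did not pair the units: over 15 pairs of groups the correlation of same-numbered units ran from -0.09 to 0.07. With a replicate block 0 members were called in each of the 8 comparisons, and 42 differed between regions. Over all probe sets the block called 21 for ADX against Sham, against 41 without it, 6 and 3 for PM against AM, 2 and 9 for PM against AM in ADX, and 5 and 11 for the time difference in ADX minus that in Sham. Region and scaling state cannot be told apart where a pair of regions shares no scaling state, and dim genes such as Psmb8 and Psmb9 are limited by their low signal.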

Other observations

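The 2 arrays of frontal cortex that carry no treatment label entered no comparison. Psme1 was 7.41 and 7.85 on them, against 7.61 to 8.43 on the 10 grouped frontal cortex arrays, so 1 of the 2 lay below that range. Psme4 was 7.06 and 6.70, against 6.09 to 6.94, and Psmb2 was 9.15 and 9.03, against 9.17 to 9.74. Psmb10, at 7.26 and 7.35, and Psmc6, at 8.87 and 9.09, lay within the grouped ranges of 7.11 to 7.64 and 8.37 to 9.19. Psmd9 was 6.69 and 6.48, against 6.49 to 7.25. These genes were chosen after their values were seen.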
